A study of Mus musculus with 6 samples.

Results

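Actin cytoskeleton regulators are the proteins that build, cut, branch, cap and bundle actin filaments, together with actin itself. The group described here is a named list of 34 genes, chosen by gene name, with the FPKM of all isoforms of a gene summed in each library. Values were analysed for 33 of them, out of 17022 gene names, and all 33 were among the 12289 genes tested. The gamma-actin gene Actg1 is not analysed here. The list covers beta-actin and the proteins that bind its monomers, the branching complex, the proteins at filament ends, the cross-linkers, the tropomyosins that coat filaments, and the linkers to the membrane.

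RNA came from neurons cut by laser out of dorsal root ganglia, which hold the cell bodies of the sensory neurons of the limb. The mice were male C57Bl/6, labelled adult and 4-6 weeks of age, and the ganglia were those of lumbar levels 3, 4 and 5 on the operated side, frozen 7 days after surgery. In the crush group the sciatic nerve was crushed for 10 seconds. In the sham group the nerve was exposed for 10 seconds and left intact. Each group had 3 libraries of polyadenylated RNA, crush 1 to 3 and sham 1 to 3. No source used here gives the number of animals behind a library, and the p-values therefore describe how these libraries vary, a spread that may be technical. No source says either how many of the neurons sent an axon through the nerve. FPKM is the number of fragments scaled for transcript length and for all mapped fragments. It holds no read count, so the depth of a library is unknown. In bulk samples fewer cells of a type and less RNA per cell cannot be told apart.

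Actin filaments grow at one end by adding monomers. Profilins deliver the monomers and beta-thymosins hold them in reserve, while cofilins sever old filaments and return monomers to the pool. The Arp2/3 complex starts new filaments as branches on old ones, and fascins and filamins join filaments into bundles and networks. In sensory neurons these proteins are known for building the filopodia and lamellipodia of the growth cone, the moving tip of a growing axon.

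The neuron markers summed to between 7398 and 8682 FPKM in the crush libraries and between 7422 and 9379 FPKM in the sham libraries, over 10 genes of which 2 were lower after crush. Markers of satellite glia and Schwann cells summed to 1674 to 1819 FPKM after crush and 1666 to 1912 FPKM after sham surgery, so RNA of these neighbours was present in both groups, with 0 of 12 genes passing the test. Macrophage markers summed to 155 to 170 FPKM in crush libraries and 71.6 to 83.4 FPKM in sham libraries, and 11 of 12 genes tested were higher after crush. Fibroblast markers summed to 178 to 190 FPKM in crush libraries and 116 to 156 FPKM in sham libraries, with 0 of 6 passing. Smooth muscle and pericyte markers summed to 37.2 to 43.6 FPKM in crush and 39.2 to 41.9 FPKM in sham libraries, endothelial markers to 13.9 to 15.3 FPKM in crush and 12.5 to 16.3 FPKM in sham libraries. Lymphocyte markers summed to 0.274 to 0.705 FPKM in crush and 0.198 to 0.258 FPKM in sham libraries, and the blood marker measured had 12.4 to 25.8 FPKM in crush and 12.7 to 22.0 FPKM in sham libraries. No marker that was measured in these lists was at 0 in all libraries. Sham 2 stood apart from the other sham libraries: it correlated with them at r = 0.978 and 0.981 across genes, whereas sham 1 and sham 3 correlated at 0.996. Genes are not independent replicates, so these values describe the libraries only.

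A single regulator, the bundling protein fascin 1 (Fscn1), was higher after crush, and the genes for the actin pool and the branching machinery did not pass the test. Of the 33 genes, 1 was called higher, 0 were called lower and 32 did not pass (limma with Benjamini-Hochberg adjustment over all genes tested, adjusted p under 0.05; 5 of the 33 had an unadjusted p under 0.05). Of all genes tested, 2.38% were called higher, 1.39% lower and 3.78% in either direction, so 1 of 33 is close to the background. In 8 genes the crush and sham values did not overlap, 24.2% of the list against 26.3% of all genes tested. In 5 of these the crush values were the higher ones (12.2% of all genes) and in 3 the lower ones (14.1%). The median log2 change over the list was 0.03, beside -0.02 over all genes tested. It was positive for 22 genes and negative for 11, and for 28 genes it lay within 0.25 of 0. For 24 genes the whole 95% interval of the change lay within 0.5 of 0, and for 32 it lay within 1. All log2 changes were computed after adding 1 to each FPKM value, which makes those of low genes smaller.

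**Figure D1:**
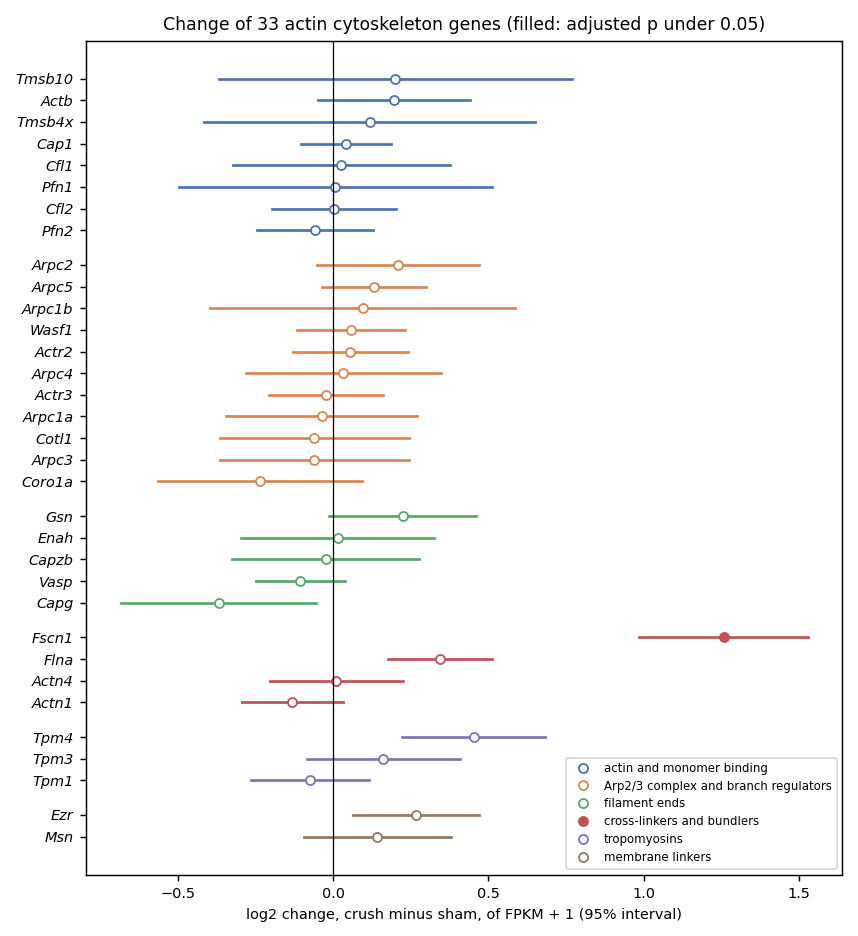
Log2 change, crush minus sham on the log2(FPKM + 1) scale, of the 33 measured actin regulators (points) with 95% intervals from limma (bars), grouped and coloured by role; a filled point marks an adjusted p under 0.05. Fscn1 stands at 1.26, Tpm4 at 0.45 and Flna at 0.34, Capg is the lowest at -0.37, and most intervals span 0.

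Groups without overlap and a log2 change of at least 0.3 in size were found for Fscn1, filamin A (Flna), tropomyosin 4 (Tpm4) and the capping protein Capg. Of these genes only Fscn1 passed the test with all libraries. The 250 bases before the start of each of these genes are printed 5' to 3' on the gene's strand, from RefSeq on GRCm38.p6. They lie at chr5:142960105-142960354 (plus strand) for Fscn1, chrX:74246535-74246784 (minus strand) for Flna, chr8:72135038-72135287 (plus strand) for Tpm4 and chr6:72549397-72549646 (plus strand) for Capg. Capitals mark matches to TATAAA, TGACGTCA and GGGCGG, searched on both strands. TGACGTCA was added after the Fscn1 sequence had been read. A CArG box, the element bound by serum response factor, was searched as well.
Fscn1: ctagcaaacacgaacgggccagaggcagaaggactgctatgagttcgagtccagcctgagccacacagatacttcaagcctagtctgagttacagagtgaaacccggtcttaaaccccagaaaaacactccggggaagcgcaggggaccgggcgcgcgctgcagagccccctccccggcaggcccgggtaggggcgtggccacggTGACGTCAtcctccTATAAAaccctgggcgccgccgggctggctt
Flna: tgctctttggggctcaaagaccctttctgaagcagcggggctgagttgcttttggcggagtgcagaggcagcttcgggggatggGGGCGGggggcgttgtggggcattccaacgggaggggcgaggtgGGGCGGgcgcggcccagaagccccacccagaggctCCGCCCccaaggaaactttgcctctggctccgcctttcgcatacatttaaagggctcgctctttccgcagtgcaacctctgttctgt
Tpm4: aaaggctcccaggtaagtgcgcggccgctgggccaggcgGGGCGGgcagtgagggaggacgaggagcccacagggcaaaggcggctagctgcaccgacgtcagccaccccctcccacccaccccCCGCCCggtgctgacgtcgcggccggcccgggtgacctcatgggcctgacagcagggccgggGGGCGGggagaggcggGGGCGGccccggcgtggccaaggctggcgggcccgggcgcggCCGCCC
Capg: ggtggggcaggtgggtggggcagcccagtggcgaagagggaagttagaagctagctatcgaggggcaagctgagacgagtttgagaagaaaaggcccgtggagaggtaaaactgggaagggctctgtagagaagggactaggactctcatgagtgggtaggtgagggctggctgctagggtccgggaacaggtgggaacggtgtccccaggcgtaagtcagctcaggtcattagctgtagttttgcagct
Counting from -1 at the last base before the start, Fscn1 held TATAAA at -31 to -26 and TGACGTCA, the full cyclic AMP response element, at -45 to -38, with 0 matches to GGGCGG. The TATAAA box was found in 12.4% of all 32851 windows of this length and in 1 of the 37 windows of 31 list genes, that of Fscn1. TGACGTCA was in 1.55% of all windows and 1 of the 37. GGGCGG, the core of the GC box, was in 32.7% of all windows and 73.0% of the list's, from 23 genes, with 3 matches in Flna, 5 in Tpm4 and 0 in Capg. The CArG box was in 1.47% of all windows and 1 of the 37, that of Arpc4. No window was available for Actb, so its sequence was not searched for any of these elements. A match is a description of the letters, not a bound site, and a missing match says nothing of a factor.

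Fscn1 encodes fascin, which packs filaments into the tight parallel bundles of filopodia. It had 27.1, 24.6 and 33.2 FPKM in crush 1 to 3, against 10.5, 11.5 and 11.6 FPKM in sham 1 to 3. The lowest crush value lay far above the highest sham value, and crush 3 was the highest. The means were 28.3 ± 4.42 FPKM after crush and 11.2 ± 0.616 FPKM after sham surgery (SD, n = 3 each, as for all means here), a ratio of 2.53. The log2 change was 1.26 with a standard error of 0.114 and a 95% interval of 0.99 to 1.53 (limma, adjusted p = 0.00646). The call was kept without each library in turn (1.14 to 1.35), among them without sham 2 (1.28, adjusted p = 0.00312). From the isoform with a reference identifier alone the change was 1.08 and did not pass (adjusted p = 0.119, over a smaller set of genes). The range over all alternatives was 1.08 to 1.35 in log2 change and 0.00129 to 0.119 in adjusted p. The lowest adjusted p came from leaving out sham 2 and crush 3 together, an alternative chosen after seeing the data. In the mm9 build of the files Fscn1 lies on chromosome 5 from 143721574 to 143734867, on the plus strand. Actb is the nearest other gene of the list, 53118 bases away on the minus strand of the same chromosome.

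Flna joins filaments at wide angles into networks and ties them to membrane receptors. It had 49.6, 45.7 and 51.4 FPKM in the crush libraries, against 36.6, 38.8 and 39.4 FPKM in the sham libraries. All 3 crush values were above all sham values, with means of 48.9 ± 2.89 FPKM after crush and 38.3 ± 1.44 FPKM after sham surgery. The log2 change of 0.34 (95% interval 0.18 to 0.51) just missed the threshold in limma (adjusted p = 0.0509). It passed with upper-quartile scaling (0.39, adjusted p = 0.0281), with quantile normalization (0.38, adjusted p = 0.0271) and without sham 2 (0.35, adjusted p = 0.0230). The range of adjusted p over the alternatives was 0.0228 to 0.217. Its low end came from leaving out sham 2 and crush 3 together, an alternative chosen after seeing the data. An isoform of 798 bases, Flna_j1, held 59.1% of the summed FPKM of this gene, so its total rests mostly on a short assembled transcript. In mm9 Flna lies on chromosome X from 71468801 to 71495220, on the minus strand. The alpha-actinins bundle filaments at adhesion sites and beneath the membrane. Actn1 had 15.9, 17.1 and 17.0 FPKM in crush libraries and 18.0, 19.5 and 17.6 FPKM in sham libraries. The crush values lay just below the sham values, with a log2 change of -0.13 (adjusted p = 0.388), and 0.08 from reference isoforms alone. Its paralog Actn4 was more abundant, with 43.7 ± 0.902 FPKM after crush and 43.5 ± 5.06 FPKM after sham surgery (log2 change 0.01).

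**Figure D2:**
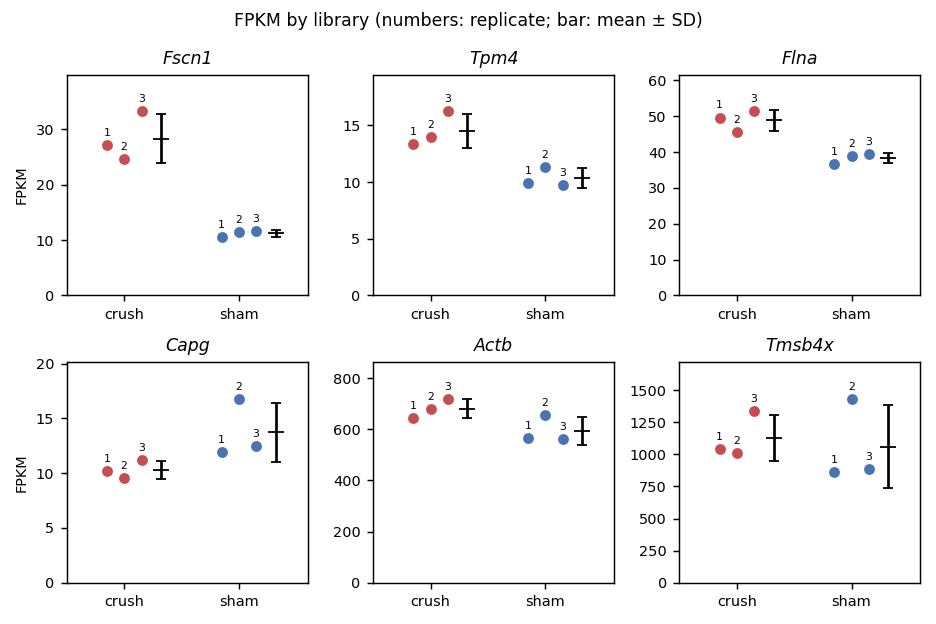
FPKM in each library (numbered points, 3 crush on the left and 3 sham on the right of each panel) with the mean and SD of each group (bars), for Fscn1, Tpm4, Flna, Capg, Actb and Tmsb4x. In Fscn1, Flna and Tpm4 the crush points lie above every sham point, in Capg below, and in Tmsb4x sham 2 is the highest library of all at 1434 FPKM.

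Tropomyosins lie along the filament and decide which other proteins can bind it. Tpm4 had 13.3, 14.0 and 16.2 FPKM after crush, against 9.95, 11.3 and 9.71 FPKM after sham surgery. The groups did not overlap, with means of 14.5 ± 1.53 FPKM in crush and 10.3 ± 0.872 FPKM in sham libraries. The log2 change was 0.45 (95% interval 0.22 to 0.68, adjusted p = 0.0571 in limma). This passed under the same settings as for Flna, with upper-quartile scaling (0.49, adjusted p = 0.0320), quantile normalization (0.46, adjusted p = 0.0453) and without sham 2 (0.51, adjusted p = 0.0153). The adjusted p ranged from 0.00651 to 0.186 over the alternatives. Its low end came from leaving out sham 2 and crush 3 together, an alternative chosen after seeing the data. In mm9 Tpm4 lies on chromosome 8 from 74659139 to 74677041, on the plus strand. Tpm1, the most abundant of the tropomyosins measured, had 95.1 ± 3.04 FPKM after crush and 100.4 ± 8.06 FPKM after sham surgery (log2 change -0.07). Tpm3 had 17.3 ± 1.74 FPKM after crush and 15.4 ± 1.62 FPKM after sham surgery (0.16). Exons of Nup210l on the same strand cover 48.4% of the exon bases of Tpm3, so its value is uncertain. The summed tropomyosin level was 127 ± 6.25 FPKM in crush libraries and 126 ± 9.71 FPKM in sham libraries.

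Ezrin (Ezr) and moesin (Msn) tie filaments to membrane proteins. Ezr had 13.2, 13.2 and 15.0 FPKM in crush libraries, against 11.0, 10.6 and 12.4 FPKM in sham libraries. The groups did not overlap, and the log2 change of 0.27 did not pass (adjusted p = 0.166). Exons of Sytl3 on the opposite strand share 52.3% of the exon bases of Ezr, at 9.34 FPKM, and no source used here states that the libraries kept strand. Msn was more abundant, with 110.9 ± 4.34 FPKM after crush and 100.8 ± 11.7 FPKM after sham surgery (log2 change 0.14, adjusted p = 0.533). Sham 2 was the lowest sham library at 87.4 FPKM, and without it the log2 change was 0.043. Msn is also made by macrophages, whose markers were higher in the crush libraries as given above. Genes described below as known in leukocytes had negative log2 changes, Coro1a of -0.24, Cotl1 of -0.06 and Lcp1 of -0.42. The part of macrophages in any of these values was not tested.

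Capg caps the growing end of filaments and had the lowest log2 change of the list. It had 10.2, 9.60 and 11.2 FPKM after crush, against 11.9, 16.8 and 12.5 FPKM after sham surgery. The crush values lay below every sham value, and sham 2 was the highest library. Means were 10.3 ± 0.797 FPKM in crush and 13.7 ± 2.67 FPKM in sham libraries, with a log2 change of -0.37 (95% interval -0.68 to -0.05) that did not pass (adjusted p = 0.216). Without sham 2 it was -0.22 (adjusted p = 0.115), and over the alternatives the adjusted p ranged from 0.0286 to 0.739. The low end came from leaving out sham 2 and crush 3 together, an alternative chosen after seeing the data. In mm9 Capg lies on chromosome 6 from 72488138 to 72512973, on the plus strand. Gelsolin (Gsn) cuts filaments and caps them in a calcium-dependent way. It had 74.4, 75.3 and 76.3 FPKM in crush libraries, against 58.6, 74.6 and 60.9 FPKM in sham libraries. Sham 2 reached the crush values while the other sham libraries stayed below them, and the log2 change was 0.22 (adjusted p = 0.310), or 0.33 without sham 2 (adjusted p = 0.0117). The capping subunit Capzb had 178 ± 13.2 FPKM after crush and 182 ± 29.8 FPKM after sham surgery (log2 change -0.02, and 0.02 with upper-quartile scaling). Vasp and Enah keep growing ends free of caps. Vasp had 38.5, 37.8 and 37.2 FPKM after crush, against 40.1, 42.4 and 39.8 FPKM after sham surgery, a small separation that did not pass (log2 change -0.11, adjusted p = 0.433). Enah had 22.4 ± 1.27 FPKM in crush libraries and 22.4 ± 3.90 FPKM in sham libraries.

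The genes for actin and its monomer-binding proteins did not pass, and 4 of them, Tmsb4x, Actb, Cfl1 and Pfn2, were the most abundant of the list. Thymosin beta 4 (Tmsb4x), the main monomer-holding peptide, had 1042, 1009 and 1334 FPKM in crush libraries, against 862, 1434 and 888 FPKM in sham libraries. Sham 2 exceeded every crush library, and the groups overlapped. The log2 change was 0.12 with a wide 95% interval of -0.42 to 0.65 (limma, adjusted p = 0.844), and 0.36 without sham 2 (adjusted p = 0.139). Actb had 644, 678 and 720 FPKM after crush, against 565, 658 and 562 FPKM after sham surgery. Its means were 681 ± 38.0 FPKM in crush and 595 ± 54.6 FPKM in sham libraries, and sham 2 lay inside the crush range (log2 change 0.20, 95% interval -0.05 to 0.44, adjusted p = 0.393). Beta- and gamma-actin are near-identical as proteins. Whether reads shared between their transcripts affected the Actb value was not tested. Cofilin 1 (Cfl1) had 442, 430.4 and 522 FPKM in crush libraries, against 401, 552 and 425 FPKM in sham libraries (log2 change 0.03). The groups overlapped fully. Over all its isoforms, 49.2% of the exon bases of Cfl1, 5042 bases, lie in exons of Snx32 on the opposite strand. The isoform Cfl1_j1, of 1109 bases, held 99.5% of its FPKM, so most of these shared bases lie outside it. The overlap of Cfl1_j1 itself was not measured. Profilin 2 (Pfn2), the profilin of neurons, had 268, 254 and 254 FPKM after crush, against 279.9, 252 and 275 FPKM after sham surgery. Its log2 change of -0.06 (adjusted p = 0.780; 0.01 with quantile normalization) was smaller than the spread between sham libraries. Capzb and the profilin Pfn1 came next in level. Pfn1 had 178 ± 23.9 FPKM after crush and 182 ± 56.1 FPKM after sham surgery (log2 change 0.01, 95% interval -0.50 to 0.51). Its value is uncertain, since exons of Slc25a11 on the same strand and of Rnf167 on the other each cover 80.3% of its exon bases. Thymosin beta 10 (Tmsb10) had 153, 154 and 196 FPKM in crush libraries, against 114, 212 and 125 FPKM in sham libraries. Sham 2 was again the highest, and the log2 change was 0.20 (adjusted p = 0.741), or 0.47 without sham 2 (adjusted p = 0.0497). It was 0.032 without sham 1, 0.094 without sham 3 and 0.083 without crush 3, none of which passed. Cofilin 2 (Cfl2), with 79.3 ± 2.38 FPKM after crush and 79.3 ± 7.11 FPKM after sham surgery, and the monomer-recycling protein Cap1, with 104.5 ± 2.12 FPKM after crush and 101.6 ± 1.65 FPKM after sham surgery, did not pass either (log2 changes 0.0037 and 0.04). Exons of Ppt1 on the opposite strand cover 75.9% of the exon bases of Cap1.

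**Figure D3:**
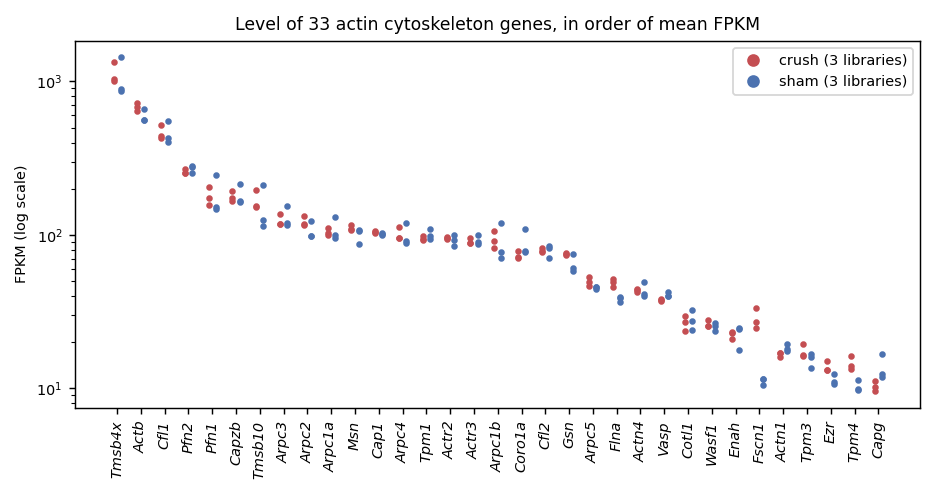
FPKM of the 33 actin regulators on a log axis, with 1 point for each library (3 crush on the left in red, 3 sham on the right in blue), ordered by mean level over all libraries. Tmsb4x leads with a mean of 1095 FPKM over all libraries, followed by Actb at 638 FPKM and Cfl1 at 462 FPKM.

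In level, all 33 genes lay above the median of the genes tested and 20 lay in the top 10%. Tmsb4x averaged 1095 FPKM over the 6 libraries, Actb 638, Cfl1 462 and Pfn2 264 FPKM, and the lowest was Capg at 12.0 FPKM. FPKM is scaled for transcript length, yet differences between libraries of a group still followed length, as given below. Levels of different genes can therefore be compared only roughly. The list as a whole took 1.38%, 1.41% and 1.52% of all FPKM in the crush libraries and 1.26%, 1.45% and 1.28% in the sham libraries. Sham 2 lay within the crush range and sham 1 and sham 3 below it.

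The Arp2/3 complex nucleates filament branches in lamellipodia and growth cones. None of its 8 measured genes passed. The mean levels ran from 47.5 FPKM (Arpc5) to 127 FPKM (Arpc3). The log2 changes ran from -0.06 (Arpc3) to 0.21 (Arpc2), with a median of 0.04. With quantile normalization the log2 changes of Arpc3 (0.0069), Arpc1a (0.02) and Actr3 (0.04) turned positive. The summed level was 750, 754 and 842 FPKM in crush 1 to 3 and 703, 875 and 710 FPKM in sham 1 to 3, with sham 2 the highest of all. Arpc2, which forms the core of the complex, had 118, 116 and 133 FPKM after crush, against 97.9, 122 and 98.9 FPKM after sham surgery. It passed without sham 2 only among the single-library omissions (log2 change 0.31, adjusted p = 0.0412) and not with all libraries (0.21, adjusted p = 0.395). Arpc5 had 53.3, 46.6 and 49.3 FPKM after crush, against 45.7, 45.9 and 44.2 FPKM after sham surgery, a separation of 0.13 on the log2 scale (adjusted p = 0.408). Arpc1a and Arpc1b, alternative forms of 1 subunit, lie 4673 bases apart on chromosome 5 on the same strand. Over all isoforms, exons of Pdap1 on the opposite strand cover 75.8% of the exon bases of Arpc1b (3583 bases). Ttll3 on the same strand covers 70.6% of those of Arpc4 (2584 bases). The main isoforms are shorter than these shared stretches. Arpc1b_j1, of 1150 bases, held 74.9% of the FPKM of its gene, and Arpc4_j2, of 1267 bases, held 68.8%. Their own overlap was not measured.

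Among proteins that act on branches, Wasf1, a neuronal activator of Arp2/3, had 26.3 ± 1.34 FPKM after crush and 25.2 ± 1.52 FPKM after sham surgery (log2 change 0.06). Coronin 1A (Coro1a), which removes branches and is best known in leukocytes, had 71.0, 79.0 and 72.04 FPKM in crush libraries, against 77.7, 109 and 78.5 FPKM in sham libraries. Sham 2 was far above the rest, the groups overlapped, and the log2 change was -0.24 (adjusted p = 0.448), or -0.078 without sham 2. Cotl1, a filament-binding protein also abundant in leukocytes, had 26.8 ± 3.02 FPKM after crush and 28.0 ± 4.19 FPKM after sham surgery (log2 change -0.06). Over all its isoforms, 42.6% of the exon bases of Coro1a, 5878 bases, are shared with exons of Bola2 on the opposite strand. The isoform Coro1a_j8, of 1531 bases, held 69.0% of its FPKM, and the overlap of that isoform itself was not measured.

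Sham 2 lay apart from the other sham libraries for many of these genes. It was the highest of all 6 libraries for 17 of the 33 genes (51.5%), against 35.1% of all genes tested, and it was the lowest for 7. Its log2 difference from the mean of sham 1 and sham 3 followed transcript length, weighted by the FPKM of the isoforms. Tmsb10, with a weighted length of 494 bases, lay 0.82 higher in sham 2, Pfn1 (699 bases) 0.72 and Tmsb4x (1146 bases) 0.71 higher. The relation was loose for single genes. Arpc1b, at 1957 bases, lay 0.69 higher there, and Arpc5, at 902 bases, only 0.03 higher. Enah, with a weighted length of 12110 bases, lay lower there (-0.44), as did Msn (-0.30). Across the 33 genes the Spearman correlation of this difference with length was -0.716, and across the 12289 genes tested it was -0.580, which describes genes of the same libraries and carries no test. All genes under 1000 bases had a median difference of 0.46 (972 genes), those over 4000 bases -0.20 (3770 genes). Crush 3 differed from crush 1 and crush 2 in the same way but less, with -0.499 over the list and -0.476 over all genes. The part of these length relations in the values of the single genes was not tested.

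**Figure D4:**
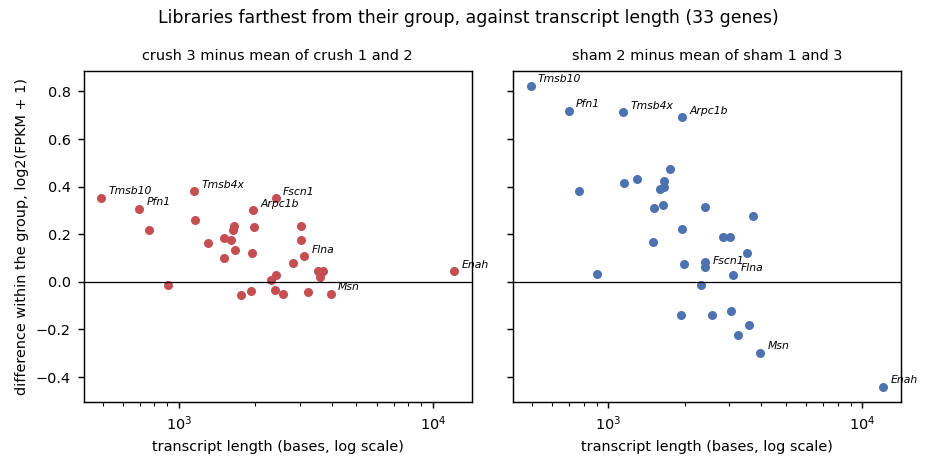
Log2 difference within a group against FPKM-weighted transcript length in bases (log axis) for the 33 actin regulators (points), with crush 3 minus the mean of crush 1 and 2 on the left and sham 2 minus the mean of sham 1 and 3 on the right. Short transcripts such as Tmsb10 lie highest in sham 2 and long ones such as Enah lowest, with a Spearman correlation of -0.716 over the genes.

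Leaving out sham 2 raised the number of list genes called higher to 6, namely Fscn1, Flna, Tpm4, Gsn, Arpc2 and Tmsb10. That fit called 607 of the 12289 genes tested higher and 567 lower, 1174 in all. Leaving out any other single library left Fscn1 as the one call. Leaving out sham 2 and crush 3 together, an alternative chosen after seeing the data, called 9 of the list, with Actb (0.23, adjusted p = 0.0242), Tmsb4x (0.23, adjusted p = 0.0228) and, as the one lower gene, Capg (-0.28, adjusted p = 0.0286) added to these 6. It called 765 of all genes tested higher and 845 lower, 1610 in all.

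Paralogs within a family can be compared inside each library, where the scaling of the library drops out. A shift that follows transcript length does not drop out where paralogs differ in length. The log2 ratio of Cfl1 to Cfl2 (weighted lengths 1155 and 3236 bases) was 2.94 in sham 2, against 2.24 in sham 1 and 2.35 in sham 3. That of Pfn1 to Pfn2 (699 and 1928 bases) was -0.03 in sham 2, against -0.88 in sham 1 and -0.90 in sham 3. Of 9 pairs, 3 had log2 ratios that did not overlap between groups, and 0 passed the exact permutation test, which cannot go below p = 0.10 with 3 against 3 libraries. The ratio of Capg to Gsn differed most. It was -2.76 ± 0.0898 after crush and -2.16 ± 0.0670 after sham surgery, a difference of -0.59 (exact permutation test, 2-sided, p = 0.10, adjusted over the pairs 0.30). Sham 2 lay with the other sham libraries in this ratio. The ratio of Tpm4 to Tpm3 was -0.24 ± 0.0460 in crush and -0.53 ± 0.169 in sham libraries, a difference of 0.29, and that of Actn1 to Actn4 was -1.34 ± 0.0341 in crush and -1.20 ± 0.0936 in sham libraries, a difference of -0.14, with the same exact permutation p = 0.10. From reference isoforms alone the difference for Actn1 to Actn4 was 0.02. The other pairs overlapped. Their differences were 0.02 for Cfl1 to Cfl2, 0.06 for Pfn1 to Pfn2, 0.08 for Tmsb10 to Tmsb4x, 0.13 for Arpc1b to Arpc1a, -0.12 for Msn to Ezr and 0.12 for Enah to Vasp, with exact permutation p between 0.30 and 0.90.

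The list has 119 isoforms in the table, of which 39 carry a reference identifier. Of the 91 that averaged 1 FPKM or more, 0 were called by limma over all isoforms, with 10 at an unadjusted p under 0.05. The background was 0.0613% of isoforms called. The smallest adjusted p was 0.205, for Flna_j5. Isoforms of 26 genes could be tested for unequal change with limma's diffSplice, and 0 passed, with 1 at an unadjusted p under 0.05 (Arpc1b, adjusted p = 0.758); 0.519% of all genes passed this test. The 5 isoforms of Fscn1 show how unsteady the split of a gene into isoforms was. Its reference isoform had 10.8, 10.8 and 17.0 FPKM after crush, against 4.49, 7.32 and 4.78 FPKM after sham surgery, a log2 change of 1.08 (limma over isoforms, adjusted p = 0.231). An assembled isoform, Fscn1_j1, had 0.153, 11.3 and 0.0012 FPKM in crush libraries, against 3.65, 0 and 5.42 FPKM in sham libraries. The summed FPKM of the gene lay between 24.6 and 33.2 in crush libraries and between 10.5 and 11.6 in sham libraries. The main isoform of Tpm4, Tpm4_j1, held 93.1% of the gene and had 13.6 ± 1.497 FPKM after crush and 9.54 ± 1.19 FPKM after sham surgery (log2 change 0.47).

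The authors' deposited table holds their own comparison of the groups per isoform, from pooled group values. Of the list, 51 isoforms had a test of status OK in the authors' deposited table, of which 18 from 10 genes were called higher after crush and 4 lower, beside 8.26% and 6.84% of all isoforms of that status. More of the 18 came from Flna than from any other gene, and some of those were near 0. Flna_j9 had pooled values of 0.18 FPKM for crush and 0 for sham, and Flna_j12 of 0.34 FPKM for crush and 0.096 FPKM for sham. All 5 isoforms of Fscn1 had status FAIL there, and 15 of the genes had no isoform of status OK. In the authors' deposited table Tmsb10_j2 had a log2 change of 0.60 (q = 2.98e-08), Tpm4_j1 of 0.52 (q = 0.000504), Tmsb4x of 0.39 (q = 0.00115), Pfn1_j1 of 0.32 (q = 0.0065) and Actb of 0.27 (q = 0.0440). For Tmsb4x the authors' deposited table gives pooled values of 1219 FPKM for crush and 928 FPKM for sham. The mean of the sham libraries was 1061 FPKM, with sham 2 at 1434 FPKM, so that pooled sham value lay closer to sham 1 and sham 3.

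Further genes of the actin pathway that are not on the list were taken from 5 lists; of all genes tested, 2.38% were called higher and 1.39% lower. Of 15 kinases and phosphatases that act on cofilin and myosin, 0 were higher and 1 was lower (median 0.11). Limk1, the kinase that switches cofilin off, had 75.9, 76.2 and 76.6 FPKM after crush, against 97.2, 102 and 91.7 FPKM after sham surgery. Its crush values were nearly equal and all below the sham values (-0.34, adjusted p = 0.0434).

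Among 25 nucleators and their activators 1 was higher and 1 lower (median 0.04). Cortactin (Cttn), which stabilises branches, had 85.3, 85.2 and 96.8 FPKM in crush libraries, against 64.3, 69.8 and 63.9 FPKM in sham libraries (0.43, adjusted p = 0.0388). Wipf3, a partner of the N-WASP family, was lower (17.9 ± 0.732 FPKM after crush, 25.7 ± 1.62 FPKM after sham surgery). Of 14 myosins 1 was higher and 1 lower (median 0.09). Myo10, the motor that carries cargo to filopodial tips, had 20.2, 18.9 and 18.9 FPKM after crush, against 12.9, 12.4 and 12.8 FPKM after sham surgery (0.57, adjusted p = 0.00861). Myh14, a non-muscle myosin heavy chain, was lower (-0.41, adjusted p = 0.0360). Of 52 genes on a list of actin-binding and membrane proteins, not all of them of growth cones, 2 were higher, 2 lower and 48 not called (median 0.07). The higher ones were filamin C (Flnc), with 4.83 ± 0.400 FPKM after crush and 1.93 ± 0.447 FPKM after sham surgery (1.003, adjusted p = 0.0136), and Gap43. One of the lower ones was Lcp1, the bundling protein of leukocytes, with 34.7, 32.8 and 29.3 FPKM after crush, against 42.5, 41.4 and 46.2 FPKM after sham surgery (-0.42, adjusted p = 0.0480). Of 6 genes of actin transcription through serum response factor, 0 passed in limma, with 0 at an unadjusted p under 0.05, and the smallest adjusted p was that of Mkl1 (0.400). Of the 8 called genes named from these lists, 8 kept the call without sham 2, and 0 without crush 1, 0 without crush 2, 1 without crush 3, 2 without sham 1 and 1 without sham 3, with fewer libraries in each fit. With all 6 libraries, 6 kept it with no filter on low values, 6 with quantile normalization and 7 with upper-quartile scaling, and from reference isoforms alone 1 of the 5 that had a value kept it.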

How the data were processed

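The list of actin regulators, the pathway lists and the marker lists were chosen with earlier results of these data known. Genes were named by a rule: members called or not overlapping between groups with a log2 change of at least 0.3, the 5 most abundant members, and up to 3 called genes per direction of each pathway list. Some genes taken by the rule, and 1 list, are not reported here. Other members outside the rule were named after their values were seen.

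The submitters' processing notes name Cuffdiff 1.2.1, Cufflinks 1.1.0, TopHat 1.3.2 and the mm9 genome; how each was set is not given in the sources used here. The authors deposited FPKM per isoform and library with an interval and a status. The same deposited table gives the authors' p-value and q-value and a log2 fold change per isoform from pooled groups. The authors' exon file was used for positions. Libraries were barcoded, mixed and run on 3 lanes; no other batch is given in the sources used here.

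FPKM was summed over isoforms of a gene name. After adding 1 and taking log2, genes averaging 1 FPKM or more were tested in R 4.3.3 with limma 3.58.1 (moderated variance with a trend, 2-sided, Benjamini-Hochberg, threshold 0.05, 95% intervals), after tests on simulated data. Isoforms were tested in the same way and with diffSplice, and paralog ratios by exact permutation. For 7 isoforms of Actr2 and Actr3 the deposited status was not OK in at least 1 library. Alternatives were another pseudocount, no filter, other scalings, a replicate block, reference isoforms only and each library left out. Figures were drawn with matplotlib 3.10.9 under Python 3.11.15. RefSeq windows are on GRCm38.p6 and were not joined to mm9 coordinates.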

Additional observations from a re-analysis of the deposited data

How the results depend on the processing

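The depth is unknown and 3 libraries per group limit the precision. The 464 genes called became 50 with a replicate block, 67 from reference isoforms only, 1610 without sham 2 and crush 3 together, and 53 to 1174 without each library. Deviations of same-numbered libraries from their group means correlated at 0.372, -0.309 and -0.486, and crush 3 correlated best with sham 2 at 0.590. Deviations within a group sum to 0, and those of sham 2 and crush 3 followed transcript length. These values therefore cannot tell whether same-numbered libraries were handled together. With the replicate block 1 list gene, Fscn1, was called (limma, adjusted p = 0.0434). Of the 8 called pathway genes named, 1, Flnc, kept its call with the block. The 1 list gene called became 3 with upper-quartile scaling, 3 with quantile normalization, 0 from reference isoforms only, 9 without sham 2 and crush 3, and 1 to 6 without each library. The 15 isoforms called in all became 7 with no filter on low values, 30 with upper-quartile scaling, 42 with quantile normalization, 0 with the replicate block, 5 without sham 2 and crush 3, and 0 to 45 without each library; 0 isoforms of the list were called under any of these. A pseudocount of 0.1 changed no call of a list gene.

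Signs turned for small changes that did not pass. From reference isoforms only, where Flna and Tpm4 had no value, the log2 change was 0.085 for Actn1, -0.14 for Cfl2, -0.064 for Arpc1b and -0.024 for Actr2, and the ratio difference was 0.023 for Actn1 to Actn4, -0.058 for Tmsb10 to Tmsb4x, -0.027 for Arpc1b to Arpc1a and 0.21 for Msn to Ezr. With upper-quartile scaling it was 0.0063 for Arpc1a, 0.021 for Actr3 and 0.019 for Capzb. With quantile normalization it was 0.012 for Pfn2, 0.018 for Arpc1a, 0.0069 for Arpc3, 0.0404 for Actr3 and 0.0019 for Capzb. Without sham 2 and crush 3 together it was -0.056 for Cfl2, 0.059 for Arpc1a, -0.012 for Actr2, 0.048 for Capzb and -0.15 for Enah. Leaving out each library gave ranges that crossed 0 for Actn4 (-0.043 to 0.10), Cfl1 (-0.065 to 0.16), Cfl2 (-0.071 to 0.0498), Pfn1 (-0.12 to 0.25), Tmsb4x (-0.011 to 0.36), Arpc1a (-0.12 to 0.10), Arpc1b (-0.052 to 0.33), Arpc3 (-0.13 to 0.068), Arpc4 (-0.045 to 0.17), Actr2 (-0.0055 to 0.11), Actr3 (-0.059 to 0.033), Capzb (-0.092 to 0.11), Enah (-0.13 to 0.096) and Cotl1 (-0.16 to 0.048), and for the ratios Cfl1 to Cfl2 (-0.11 to 0.24), Pfn1 to Pfn2 (-0.085 to 0.35) and Enah to Vasp (-0.055 to 0.21). The cause was not tested.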
